A study of Homo sapiens with 4 samples.

Results

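Intermediate filaments form the cell's most resilient cytoskeletal system, and the transcripts of 10 such genes outside the keratin family were followed here: the type III filament genes VIM and DES, the type IV genes NES, SYNM, NEFL, NEFM and NEFH, and the type V lamin genes LMNA, LMNB1 and LMNB2. They were chosen by name, and all 10 were found among 17716 genes. Each had 1 probe set (several short probes read together for a transcript) among those deposited with a single current gene symbol. Expression had been measured in Hs683 cells, a human glioma line, on 4 Affymetrix arrays. All arrays were of cells in which QK, now named QKI, had been knocked down. In 2 of them the cells carried miR-20a and in the other 2 a non-targeting microRNA of scrambled sequence (miR-NT), both introduced by transduction. Whether replicates of a group were separate cultures is not stated in the labels, so p-values here cover the spread among these 4 arrays alone, and that spread may be technical. The labels give no separate clones and no array of cells without the knockdown was analysed here.

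Intermediate filament proteins share a coiled-coil rod, and pairs of them assemble side by side into rope-like filaments. Type III and type IV filaments span the cytoplasm, where VIM marks mesenchymal and glial cells, DES muscle, NES neural progenitors and the neurofilament genes neurons. Lamins line the inner face of the nuclear envelope; LMNA encodes the A-type lamins, whose amount is known to vary with differentiation and with the stiffness of a tissue, and LMNB1 and LMNB2 the B-type lamins found in nearly all cells. In gliomas VIM and NES are commonly used as markers, together with GFAP, the astrocyte filament.

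The agent that differed between the groups is the reason for showing 1 sequence, that of miR-20a. Its main mature strand is given from RefSeq (GRCh38.p14, chr13:91351072-91351094, plus strand, 5′ to 3′), with the seed, the bases with which a microRNA first pairs with a target, in capitals.
hsa-miR-20a-5p: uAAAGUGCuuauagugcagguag
Whether transcripts of the 10 genes hold sites for this seed was not analysed here.

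The deposited values are log2 expression values. The array medians lay between 6.43 and 6.45 over 20323 probe sets, and the lowest correlation of any array pair across probe sets was 0.99. Control probe sets that read the 5' end of abundant transcripts were lower with miR-20a, a difference that was not tested here. That of ACTB, the ACTB 5' control, gave 12.78 and 12.66 in the miR-NT arrays and 11.59 and 10.43 in the miR-20a arrays, and the GAPDH 5' control 13.89 and 13.81 against 13.17 and 12.30. In both controls miR-20a replicate 2 was the lowest array. Only their 5' signals were used here, so RNA or labelling quality and the level of these transcripts cannot be told apart. QKI itself measured 8.14 and 7.92 in the miR-NT arrays and 7.52 and 7.08 in the miR-20a arrays and did not pass (log2 fold change −0.73, SE 0.16, limma adjusted p = 0.106). In such bulk RNA, fewer cells with a transcript and less of it per cell cannot be told apart.

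None of the 10 genes passed the limma test between miR-20a and miR-NT at an adjusted p under 0.05, as 0.00806% of all genes tested did in the lower direction and 0% in the higher; only 5 of the 10 were bright enough to be tested. LMNA had the most negative log2 fold change, −0.61, and was lower on both miR-20a arrays than on both miR-NT arrays. VIM was also lower on both, by 0.19 on average; 31.1% of all genes tested were lower without overlap of the groups. LMNB1, LMNB2 and SYNM had mean differences of at most 0.08 in either direction. The other 5 genes, DES, NES and the 3 neurofilament genes, were so dim that they were left out of the test; in the fit without that filter their limma adjusted p ranged from 0.203 to 0.66. The filter on low values removed the 5315 genes of lowest mean over all 4 arrays (30%) and left 12401.

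**Figure D1:**
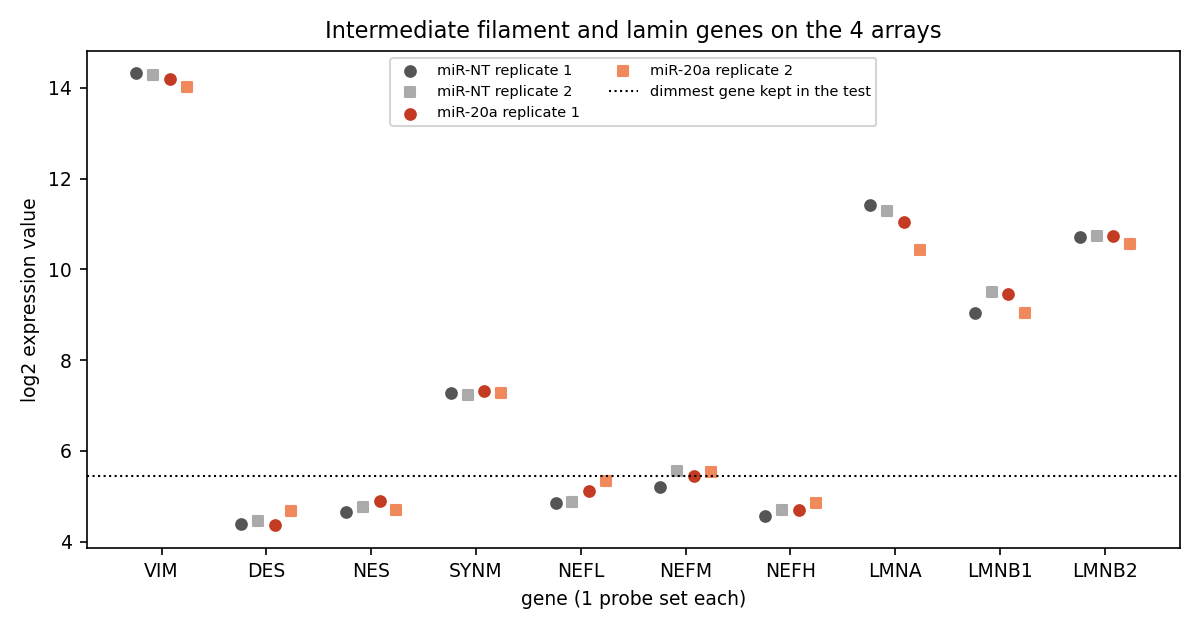
Log2 expression value (vertical axis) of each of the 10 genes on each array, with grey points for miR-NT, red and orange points for miR-20a, and a dotted line at 5.46, the mean of the dimmest gene kept in the test. VIM, LMNA, LMNB1, LMNB2 and SYNM lie above the line, and DES, NES, NEFL, NEFM and NEFH have means below it; values of different genes come from different probes and are not amounts to be compared.

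VIM, the type III filament of mesenchymal and glial cells, measured 14.32 and 14.27 in the miR-NT arrays and 14.19 and 14.02 in the miR-20a arrays. Both miR-20a arrays were below both miR-NT arrays. The probe set was the one of rank 12 by mean signal among all 20323, near the top of the scale, where the highest value of any probe set was 14.71. The log2 fold change was −0.19 (SE 0.10, 95% interval −0.43 to 0.053), a 1.14-fold difference that did not pass (limma adjusted p = 0.345). Of the genes tested, 31.4% had a smaller p than VIM.

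DES, the muscle member of the same type, measured 4.39 and 4.45 in the miR-NT arrays and 4.36 and 4.68 in the miR-20a arrays. The groups overlapped, and miR-20a replicate 2 was the highest array. Its probe set was dimmer than 86.4% of all probe sets. MYOD1 and MYOG, transcription factors that define skeletal muscle, had means of 6.10 and 6.97, and of 13 muscle markers measured 6 were left out as dim. The sum of the log2 values of these 13 markers was 73.06 and 73.93 in the miR-NT arrays and 73.07 and 73.34 in the miR-20a arrays, so that the groups overlapped there as well.

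NES, the large type IV filament of neural progenitors, measured 4.65 and 4.76 in the miR-NT arrays and 4.89 and 4.71 in the miR-20a arrays. These values overlapped and lay below the 5.46 of the dimmest gene kept. GFAP, fixed among the related filament genes, was dim too, with 4.54 and 4.21 in the miR-NT arrays against 4.31 and 4.81. The glial marker S100B had a mean of 4.83. Of 7 progenitor markers measured, 4 were left out as dim, and SOX2, PAX6 and FABP7 had means of 5.95, 6.84 and 5.80. Their log2 fold changes were −0.12, 0.23 and 0.27, and none passed (limma adjusted p from 0.228 to 0.583). Of the 8 astrocyte markers, 5 were left out as dim, while GJA1, a gap junction gene, and SOX9 had means of 10.71 and 9.53. Only 1 probe set of each was used here, and no detection call was used, so a dim signal does not show that a transcript was absent.

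SYNM, which encodes synemin, a type IV filament that copolymerises with VIM and DES, measured 7.28 and 7.24 in the miR-NT arrays and 7.33 and 7.28 in the miR-20a arrays. Its range over the 4 arrays was 0.089, the narrowest among the 10 genes. The groups did not overlap, with the lower miR-20a array at 7.277 and the higher miR-NT array at 7.276. The log2 fold change was 0.045 (SE 0.10, 95% interval −0.18 to 0.27, limma adjusted p = 0.783). The interval runs from 0.884 of the control level to 1.20-fold. It covers the spread among these 4 arrays alone and does not bound the change in the cells.

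The neurofilament genes encode the light (NEFL), medium (NEFM) and heavy (NEFH) subunits of the filaments of axons. NEFL measured 4.86 and 4.88 in the miR-NT arrays and 5.12 and 5.33 in the miR-20a arrays. Both miR-20a arrays were above both miR-NT arrays, and replicate 2 was the higher. NEFM measured 5.21 and 5.56 against 5.45 and 5.53, and NEFH 4.57 and 4.71 against 4.69 and 4.85, and in both the groups overlapped. In a fit without the filter on dim genes the log2 fold changes were 0.35 for NEFL (SE 0.11, 95% interval 0.10 to 0.60), 0.10 for NEFM (SE 0.13) and 0.13 for NEFH (SE 0.11). NEFL and NEFM are direct neighbours among the protein-coding genes of the RefSeq table (GRCh38.p14), and NEFH lies on another chromosome. The NEFL probe set is of the kind whose probes, by Affymetrix's naming, can also match unrelated transcripts. The same naming holds for the probe sets of TUBB3, KRT10, KRT18, DST, ICMT and TUBB, named below.

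These differences at low signal had a counterpart in the other dim genes. Among the 5315 genes left out, 30.5% were higher on both miR-20a arrays than on both miR-NT arrays and 18.2% were lower, and 39.5% had a log2 fold change below 0. The 5 dim members all had a log2 fold change above 0, with a median of 0.10 against 0.051 for all genes left out, and 1 of them, NEFL, had groups that did not overlap. Of the 12 neuronal markers 4 were left out as dim, among them the axonal genes STMN2 and GAP43. The markers' summed log2 values were 78.63 and 78.25 in the miR-NT arrays and 79.36 and 78.92 in the miR-20a arrays, which did not overlap. The 8 tested markers were split, with 5 log2 fold changes above 0, 3 below and a median of 0.031. RBFOX3, a nuclear marker of neurons, measured 5.45 and 5.49 in the miR-NT arrays and 5.76 and 5.83 in the miR-20a arrays (log2 fold change 0.32, SE 0.10, limma adjusted p = 0.168). Also above 0 were MAP2 at 0.25 (SE 0.13), SYP at 0.21 (SE 0.13), SYT1 at 0.035 (SE 0.13) and INA at 0.027 (SE 0.09). The 3 below 0 were the neuronal tubulin TUBB3 at −0.32 (SE 0.15), the synaptic protein SNAP25 at −0.21 (SE 0.12) and the enolase ENO2 at −0.19 (SE 0.10). With the ACTB 5' control as a covariate the log2 fold change of NEFL was 0.040 (SE 0.24), against 0.35 without it. That control also differed between the groups, so the fit cannot cleanly separate its signal from the group. The part of the neuronal markers in the NEFL values was not tested.

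**Figure D2:**
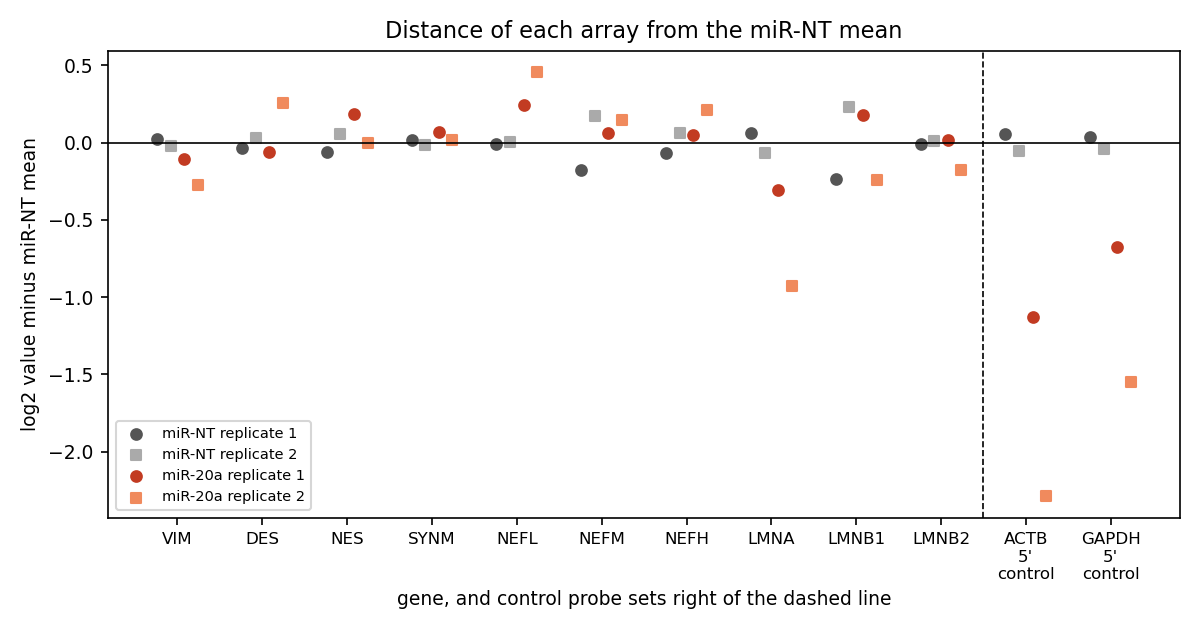
Log2 value of each array minus the mean of the 2 miR-NT arrays (vertical axis), for the 10 genes and, right of the dashed line, for the 5' control probe sets of ACTB and GAPDH. LMNA shows the 2 miR-20a arrays apart at −0.30 and −0.92, in the same order as the controls. VIM has that order too, at −0.11 and −0.27. All genes other than LMNA stay within 0.46 of the miR-NT mean.

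LMNA, the gene of the A-type lamins A and C, measured 11.41 and 11.28 in the miR-NT arrays and 11.04 and 10.42 in the miR-20a arrays. Both miR-20a arrays were lower than both miR-NT arrays, and their distances from the miR-NT mean were −0.30 for replicate 1 and −0.92 for replicate 2. The log2 fold change was −0.61 (SE 0.19, 95% interval −1.05 to −0.17), a 1.53-fold difference. It did not pass over all genes (limma adjusted p = 0.176), and its unadjusted p of 0.0126 was undercut by 7.13% of the genes tested. Which of the LMNA transcripts the probe set reads was not established.

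The LMNA value moved with the array and with the 5' control signal. Without miR-20a replicate 2 its log2 fold change was −0.30 (limma adjusted p = 0.275), and without replicate 1 it was −0.92, where LMNA passed (limma adjusted p = 6.32e-06). That fit takes the spread of miR-20a from the miR-NT pair, and 1567 genes were lower and 302 higher in it. Across all alternatives the adjusted p of LMNA ranged from 6.32e-06 to 0.932. With the ACTB 5' control included in the fit as a covariate, the log2 fold change of LMNA turned to 0.31 (SE 0.25, limma adjusted p = 0.932). That control itself differed between the groups without overlap, so the fit cannot cleanly separate its signal from the group. Its slope rests mainly on the replicate difference within miR-20a. The SE was the same for all 5 tested members and is not a spread of LMNA alone. The 2 miR-20a arrays differed (replicate 2 minus replicate 1) by −0.62 for LMNA, −1.16 for the ACTB 5' control and −0.87 for the GAPDH 5' control.

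LMNB1, a B-type lamin that is permanently farnesylated and bound to the nuclear membrane, measured 9.04 and 9.51 in the miR-NT arrays and 9.45 and 9.03 in the miR-20a arrays. The groups overlapped completely, with a low and a high array in each. The replicates differed by 0.47 in the miR-NT pair and by −0.42 in the miR-20a pair (replicate 2 minus replicate 1), and the log2 fold change was −0.033 (SE 0.19, limma adjusted p = 0.919). Its interval of −0.47 to 0.40 runs from 0.722 of the control level to 1.32-fold. As for SYNM, the interval covers the spread among these arrays alone and does not bound the change in the cells.

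LMNB2, the other B-type lamin gene, measured 10.72 and 10.74 in the miR-NT arrays and 10.74 and 10.55 in the miR-20a arrays. With miR-20a, replicate 1 was the highest of all 4 arrays and replicate 2 the lowest. The log2 fold change was −0.08 (SE 0.11, 95% interval −0.33 to 0.17, limma adjusted p = 0.662). The log2 fold changes of both B-type lamins changed sign under quantile normalization, to 0.059 for LMNB1 and 0.040 for LMNB2.

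Within each array the log2 signal of LMNA minus that of LMNB2 was 0.69 and 0.54 in the miR-NT arrays and 0.30 and −0.13 in the miR-20a arrays. The groups did not overlap, and the mean difference between them was −0.53. For LMNA minus LMNB1 the values were 2.37 and 1.77 against 1.59 and 1.39, again without overlap, with a mean difference of −0.58. These are differences between separate probe sets and describe unequal change only, and no test of them was made. They follow largely from the LMNA values, since LMNB1 and LMNB2 had log2 fold changes of −0.033 and −0.08, and add no separate support. Of single genes tested, 31.1% were lower without overlap, and the share for such differences was not computed.

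**Figure D3:**
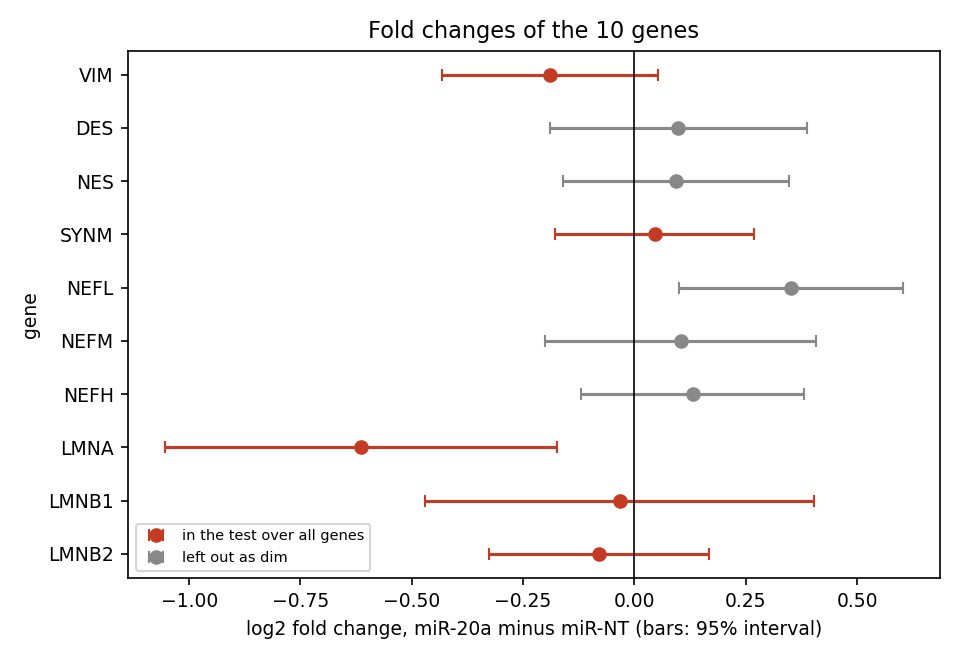
Log2 fold change, miR-20a minus miR-NT (horizontal axis), of the 10 genes with 95% intervals from the limma fits, red for the 5 genes in the test over all genes and grey for the 5 left out as dim. The intervals of LMNA (−1.05 to −0.17) and NEFL (0.10 to 0.60) leave out 0 before adjustment over all genes, and neither is a call.

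Over the 5 tested members 0 passed the adjusted threshold of 0.05, where in all 1 of 12401 genes passed in the lower direction (0.00806%) and none in the higher one (0%). At an unadjusted p under 0.05 the count was 1 of 5, LMNA, in the lower direction, against a background of 13.2% of genes, and 0 of 5 in the higher direction, against 5.82%. The groups did not overlap in 2 members with lower values, VIM and LMNA, and in 1 with higher values, SYNM, against 31.1% and 25.1% of all genes tested. Of the 5 members, 4 had a log2 fold change below 0, against 53.8% of genes, and their median was −0.08 against −0.023. Each share over 5 genes moves widely with a single gene, and nothing is read from it.

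The profiles of the members over the 4 arrays were compared after each was centred on its own mean. The pairs closest to each other by root mean square difference were DES and NEFH (0.0595 on the log2 scale) and VIM and LMNB2 (0.0603). The pair farthest apart was LMNA and NEFL (0.568), and LMNA was in all of the 4 most distant pairs. Such distances over 4 arrays describe these arrays and carry no test.

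Genes around the filaments were taken from fixed lists, none of which had a member past the adjusted threshold. Other non-keratin filament genes, 7 tested of 9 measured, had 2 log2 fold changes below 0 and 5 above, with a median of 0.038. IFFO1, a gene of the wider filament family, was at 0.11 (SE 0.10), PRPH at 0.14 (SE 0.15) and IFFO2 at −0.072 (SE 0.10). PRPH, the type III filament of peripheral neurons, measured 7.74 and 7.94 in the miR-NT arrays and 7.76 and 8.19 in the miR-20a arrays, so that the groups overlapped. The 5 tested keratins, of 11 measured, had a median of 0.051, with KRT80 at 0.23 (SE 0.14), KRT5 at 0.099 (SE 0.15) and KRT10 at 0.051 (SE 0.10). KRT18, a filament of simple epithelia, was bright with a mean of 12.65.

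Linkers that tie intermediate filaments to other structures had 7 of 9 tested log2 fold changes below 0, a median of −0.17, and 3 members at an unadjusted limma p under 0.05 in the lower direction and 1 in the higher. Over all genes tested 53.8% were below 0, and 13.2% were lower and 5.82% higher at that p. Without miR-20a replicate 1 the median was −0.029, and without miR-NT replicate 1 it was −0.25. PLEC, the gene of plectin, which links VIM filaments to actin, adhesions and the nuclear envelope, measured 7.05 and 6.91 in the miR-NT arrays and 6.08 and 5.28 in the miR-20a arrays. Both miR-20a arrays were lower, and replicate 2 was again the lowest. That array lay below 5.46, the mean of the dimmest gene kept. Its log2 fold change was −1.30 (SE 0.23), short of the threshold (limma adjusted p = 0.0949). The plakin DST was at −0.28 (SE 0.11) and PKP4, a relative of the desmosomal plakophilins, at −0.37 (SE 0.13).

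Partners of the lamina in the nuclear envelope had 15 of 18 tested log2 fold changes below 0, with a median of −0.12, and 4 members lower and 1 higher at an unadjusted limma p under 0.05 (over all genes 53.8% were below 0, 13.2% lower and 5.82% higher at that p). The median was −0.22 without miR-20a replicate 1, −0.059 without replicate 2 and −0.19 without miR-NT replicate 2. TOR1AIP1, which encodes the lamina-associated protein LAP1, measured 6.24 and 5.82 in the miR-NT arrays and 5.12 and 5.09 in the miR-20a arrays. The groups did not overlap. Its mean of 5.57 passed the filter through the miR-NT values. Both miR-20a values lay below 5.46, the mean of the dimmest gene kept, so their closeness cannot be set beside LMNA. The log2 fold change was −0.92 (SE 0.14, limma adjusted p = 0.0788). TMEM43, an inner membrane protein, was at −0.33 (SE 0.11), and TMPO, which encodes the LAP2 proteins, at −0.31 (SE 0.11).

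Enzymes that process the farnesylated tail of lamins were below 0 in 4 of 4 tested genes, against 53.8% of all genes, with a median of −0.20. FNTA, the alpha subunit of farnesyltransferase, was at −0.55 (SE 0.19), the methyltransferase ICMT at −0.23 (SE 0.11) and the protease RCE1 at −0.17 (SE 0.10), with limma adjusted p from 0.207 to 0.357. The remaining gene, ZMPSTE24, was at −0.042 (SE 0.10, limma adjusted p = 0.807), and its groups overlapped. FNTA measured 7.93 and 7.90 in the miR-NT arrays and 7.68 and 7.04 in the miR-20a arrays, lowest on replicate 2.

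Kinases, proteases, ubiquitin ligases and chaperones that act on filaments or lamins were below 0 in 15 of 20 tested genes, with a median of −0.22. At an unadjusted limma p under 0.05, 6 were lower and 2 higher, against 13.2% and 5.82% of all genes, and 53.8% of all genes were below 0. Leaving out miR-20a replicate 1 gave a median of −0.37, and leaving out replicate 2 gave −0.14. YWHAZ, a 14-3-3 protein that binds phosphorylated VIM, was at −1.12 (SE 0.16, limma adjusted p = 0.0727) and ROCK1, a kinase of VIM, at −0.62 (SE 0.15, limma adjusted p = 0.122). The kinase gene CAMK2D was at 0.38 (SE 0.10, limma adjusted p = 0.143).

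The other cytoskeletal systems served as a comparison. Actins and tubulins were below 0 in 8 of 11 tested genes, against 53.8% of all genes, with a median of −0.10. ACTB and ACTG1 were on the list but had no probe set with a single symbol. The only actins measured were ACTA2 and ACTG2, so the list describes mainly tubulins. That median turned to 0.019 after quantile normalization, was −0.046 without miR-20a replicate 2 and −0.16 without replicate 1. The smooth muscle actin ACTG2 was at −0.34 (SE 0.10), TUBA1A at 0.27 (SE 0.10) and TUBB at −0.27 (SE 0.10), with limma adjusted p from 0.17 to 0.22. Among 5 tested genes of mesenchymal transition and cell junctions, in which VIM is usually counted, the median was −0.10, and it was −0.0074 without miR-NT replicate 1, −0.19 without miR-NT replicate 2 and −9e-04 after quantile normalization. CDH2, N-cadherin, was at −0.60 (SE 0.18), the matrix protein FN1 at −0.41 (SE 0.10) and the transcription factor TWIST1 at 0.27 (SE 0.09), with limma adjusted p from 0.127 to 0.216. With that 5' control as a covariate the medians turned to 0.072 for the lamina partners, 0.062 for the processing enzymes, 0.14 for the kinases, proteases, ubiquitin ligases and chaperones and 0.15 for actins and tubulins, and to −0.079 for the other non-keratin filaments, where that of all genes was 0.047. It was −0.16 for the linkers, 0.27 for the keratins and −0.018 for the mesenchymal and junction genes, which kept their sign. What the 5' signal contributes to these lists was not tested beyond that fit, which cannot cleanly separate this signal from the group.

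**Figure D4:**
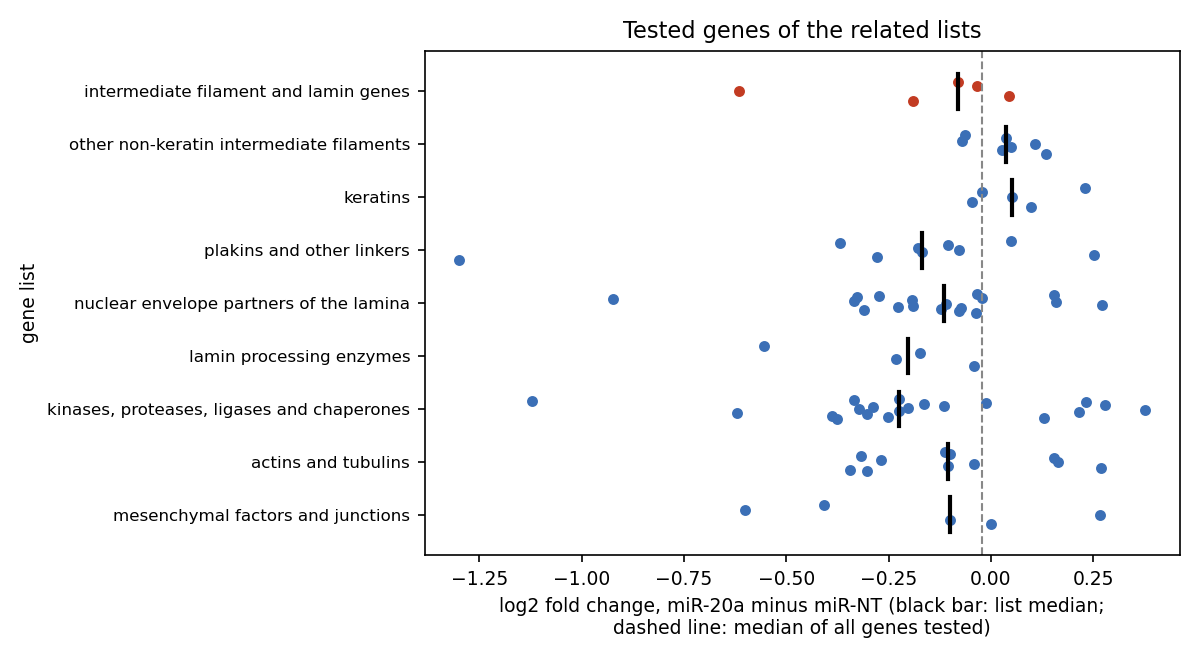
Log2 fold change, miR-20a minus miR-NT (horizontal axis), of each tested gene (points) in the intermediate filament and lamin set (red) and 8 related lists (blue), with black bars at the list medians and a dashed line at −0.023, the median of all genes tested. The lowest points are PLEC at −1.30 among the linkers and YWHAZ at −1.12 among the kinases, proteases, ligases and chaperones; LMNA at −0.61 is the lowest of the red points.

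Start sites were described for the 6 members with an entry in the RefSeq promoter table (windows of 300 bases, most of them upstream of the gene start, GRCh38.p14), namely VIM, NES, SYNM, LMNA, LMNB1 and LMNB2. The GC box, searched as GGGCGG on both strands, occurred in 5 of the 6 windows, LMNB1 being without it, against 44.6% of 27305 promoters. Those promoters were not filtered by gene type, while the members are all protein-coding. The TATA box, searched as TATAAA on both strands, occurred in none of the 6, against 12% of promoters. The share of G and C ranged from 48% in VIM to 79% in SYNM, with a median of 58.3% over all promoters. Only the first listed window of a gene was taken, for members and for all promoters, so other start sites are not covered. A match describes the letters of the window and is no evidence that a factor binds there.

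**Figure D5:**
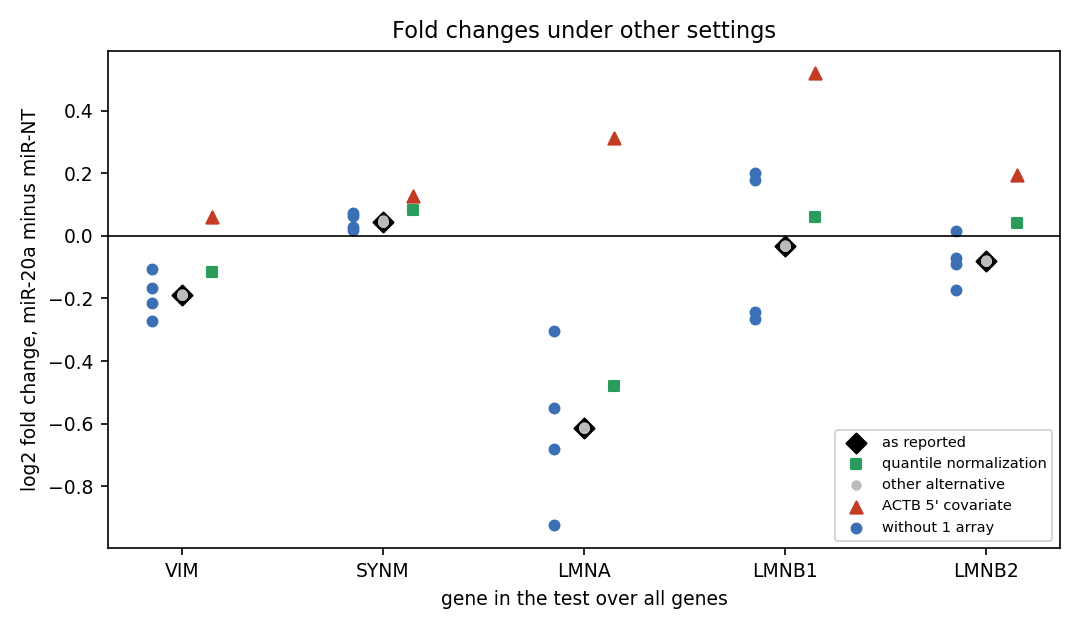
Log2 fold change, miR-20a minus miR-NT (vertical axis), of the 5 tested genes as reported (black diamonds), without each array in turn (blue), after quantile normalization (green), with the ACTB 5' control as a covariate (red) and under the other alternatives (grey). LMNA ranges from −0.92 to 0.31 and is above 0 only with the covariate, SYNM stays above 0, and LMNB1 and LMNB2 lie on both sides of 0.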

How the data were processed

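The authors deposited 1 table with a log2 expression value for each of 20323 probe sets on each array. Whether the array carries further probe sets was not examined, so ranks and shares are among the deposited ones. That the scale is log2 was judged from the range of the values. Per the submitters' processing notes the R package affy was used, with no version. Background correction, summarisation, normalization and genome build were not given in the sources used here. Samples were grouped by title and source name. Gene names came from the platform annotation, and symbols were brought up to date by gene identifier against the RefSeq gene table; 18060 had a single symbol and 886 several, and those without one were unnamed. The probe set of highest mean stood for each gene (338 genes had more than 1). Each gene was fitted by limma (version 3.58.1, R 4.3.3) with lmFit and eBayes (two-sided tests, no covariate, 2 residual and 5.53 prior degrees of freedom) with Benjamini-Hochberg adjustment over 12401 genes. Intervals are at 95% and unadjusted. An exact permutation test of 2 arrays against 2 was not run, since it cannot reach the threshold. Fold changes of genes left out as dim came from the same fit on all 17716 genes. The limma step was tested on simulated data.

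Named were the 10 members, QKI and the ACTB 5' control, and, from each list, up to 3 tested genes with the smallest p. Other markers (GFAP among them), KRT18, ZMPSTE24 and the GAPDH control were added for description, after their values were seen. From the marker lists not all genes of the rule are named. Members and lists were chosen with earlier results of these data known, so no list was given a test. The number of arrays limits the precision.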

Additional observations from a re-analysis of the deposited data

How the results depend on the processing

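Of the 5 tested members, only LMNA passed under an alternative, the one without miR-20a replicate 1. The 5 dim members entered the test together only without the filter, where none passed. Genes lower over the whole table numbered 6 after quantile normalization, 45 after median centring, 4 with the dimmest 50% left out, 23 with an intensity trend and robust prior, 5 with the ACTB 5' covariate and 0 with the replicate block, and from 0 to 1567 with an array left out. Genes higher numbered 2 after median centring, 1 with the trend and 1 with the covariate, and from 0 to 302 with an array left out, most without miR-20a replicate 1.

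The median of the 5 tested members was 0.0402 after quantile normalization and 0.19 with the covariate, and ranged from −0.24 (without miR-20a replicate 1) to 0.0143 (without replicate 2) with an array left out. Members below 0 numbered 2 after quantile normalization, 0 with the covariate and 2 to 4 with an array left out. With the covariate the log2 fold change turned to 0.0605 for VIM, 0.31 for LMNA, 0.52 for LMNB1, 0.19 for LMNB2, −0.37 for DES, −0.0645 for NEFM and −0.13 for NEFH. After quantile normalization it turned to 0.0591 for LMNB1 and 0.0402 for LMNB2. With an array left out LMNB1 ranged from −0.27 to 0.20, LMNB2 from −0.17 to 0.0143, DES from −0.0577 to 0.26 and NEFM from −0.0713 to 0.28. The causes were not tested, and the covariate fit cannot cleanly separate the 5' signal from the group.

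The replicate numbers are shared by both groups, with 2 pairs only, and nothing in the labels ties arrays of the same number. Within-group differences correlated across genes at r = 0.27. With the replicate block LMNA remained short of the threshold (adjusted p = 0.149 in limma), as did the other 4 tested members. With an array left out, the medians of the related lists ranged from −0.25 to −0.029 (linkers), −0.22 to −0.059 (lamina partners), −0.26 to −0.14 (processing enzymes), −0.37 to −0.14 (kinases and the rest), −0.16 to −0.046 (actins and tubulins), −0.19 to −0.0074 (mesenchymal and junction genes), 0.0038 to 0.076 (other filaments) and 0.0065 to 0.073 (keratins).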
